A study of Mus musculus with 6 samples.

Results

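Growth hormone, thyroid hormone, glucocorticoids, vitamin D and sex steroids all act on cartilage through dedicated receptors, and the genes described here are the receptors and a few of the genes they control. The 9 genes were Ghr, the growth hormone receptor, Socs2, a feedback inhibitor of that receptor, Thra and Thrb, the nuclear receptors of thyroid hormone, Nr3c1, the glucocorticoid receptor, Fkbp5 and Tsc22d3, which glucocorticoids induce in many cells, Vdr, the vitamin D receptor, and Esr1, estrogen receptor alpha. They were picked by name, and all 9 were found among the 22032 gene identifiers of the mouse expression matrix. All 9 had a mean of at least 1 TPM, a unit of transcript share scaled for length, over the samples and were tested. Thrb reached that mean through the adult samples alone.

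The matrix held RNA-seq of 6 samples of chondrocytes, all with the knee as source in the labels, 3 from embryos at E16.5 and 3 from adult mice aged 2 months. The embryonic stage is E16.5 in the paper and 16.5 wks in the labels. Cartilage was digested for some hours and the cells were sorted as CD31- CD45- Ter119- ALP- BMPR1B+ into medium that contained serum, with BMPR1B, a bone morphogenetic protein receptor, as the positive marker and ALP, alkaline phosphatase, as a marker of bone-forming cells. The adults were male B6 mice. The sex of the embryos and the number of animals behind a sample are not given in the sources used here, and the labels name no transgene, no treatment and no hormone level. Values in TPM have a fixed sum in each sample, and the matrix does not carry the read depth behind them. A fold change is the difference of mean log2(TPM + 1), adult minus embryonic, from a limma fit over all genes, and a gene was called higher or lower where the adjusted p of that fit was under 0.05.

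The sorted cells carried cartilage transcripts at both stages. Over 16 chondrocyte markers the summed level was 30400 to 32000 TPM in the embryonic samples and 15500 to 19000 TPM in the adult ones. None of the 16 was at 0 in any sample. Col2a1, the largest part of the embryonic sum, had a mean of 14700 TPM in embryonic and 4710 TPM in adult samples. Of the 16, 10 were called lower in adults and 4 higher, namely Sox9, Sox5, Comp and Chad. The share called was 87.5%, beside 45.3% of all genes. Transcripts of other cells were present and moved with the stage. The summed level of 8 tendon and fibroblast markers was 605 to 824 TPM in embryonic and 261 to 344 TPM in adult samples, and that of 10 osteoblast and osteocyte markers was 35.2 to 70.7 TPM and 299 to 501 TPM. Most of the adult sum came from Ibsp at 316, 235 and 308 TPM in adult samples 1, 2 and 3. Of the others, Dmp1 was lower in adults (fold change -2.92, limma adjusted p = 0.00495), Sp7 and Phex were not called and Sost was at 0 in all 6 samples. The 11 leukocyte markers summed to 6.12 to 14.7 TPM in the embryonic samples and to 220, 21.6 and 126 TPM in adult samples 1, 2 and 3, with S100a8 and S100a9 at 0 in adult sample 2. Xist, which is transcribed from an inactive X chromosome, was listed at 207, 0.0164 and 78.5 TPM in embryonic samples 1, 2 and 3 and at no more than 0.303 TPM in the adults, and Ddx3y, a Y-linked gene, at 0.138, 111 and 68.6 TPM in embryonic samples 1, 2 and 3. The effect of these differences on the hormone genes was not tested, but the fit was repeated for the 9 genes and for those named by the fixed rule without adult samples 1 and 3 and without embryonic samples 1 and 3. Fewer cells of a type and less RNA per cell cannot be told apart in such samples.

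As background, growth hormone binds GHR at the cell surface, which activates the kinase JAK2 and the transcription factors STAT5A and STAT5B, and these induce Igf1 together with the inhibitors Socs2 and Cish. The other receptors are transcription factors that enter or stay in the nucleus. Thyroid hormone is made active inside cells by the deiodinase DIO2 and inactive by DIO3, and growth plate cartilage depends on it for maturation. Glucocorticoids slow longitudinal growth, estrogen acts in growth plate closure, and vitamin D controls mineral supply to the skeleton.

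Between the stages, 5 of the 9 genes were called. Thrb, Nr3c1 and Tsc22d3 were higher in adult chondrocytes, Ghr and Thra were lower, and Socs2, Fkbp5, Vdr and Esr1 did not pass the threshold. Over all 13125 genes tested, 45.3% were called, of which 23.9% of the tested genes were higher and 21.4% lower in adults. The share among the hormone genes was 55.6%, near that of all genes. The ranges of the 3 embryonic and 3 adult samples did not overlap for 6 of the 9 genes, beside 56.5% of all tested genes. The median fold change of the 9 genes was 0.33 on the log2 scale and that of all genes 0.16.

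**Figure D1:**
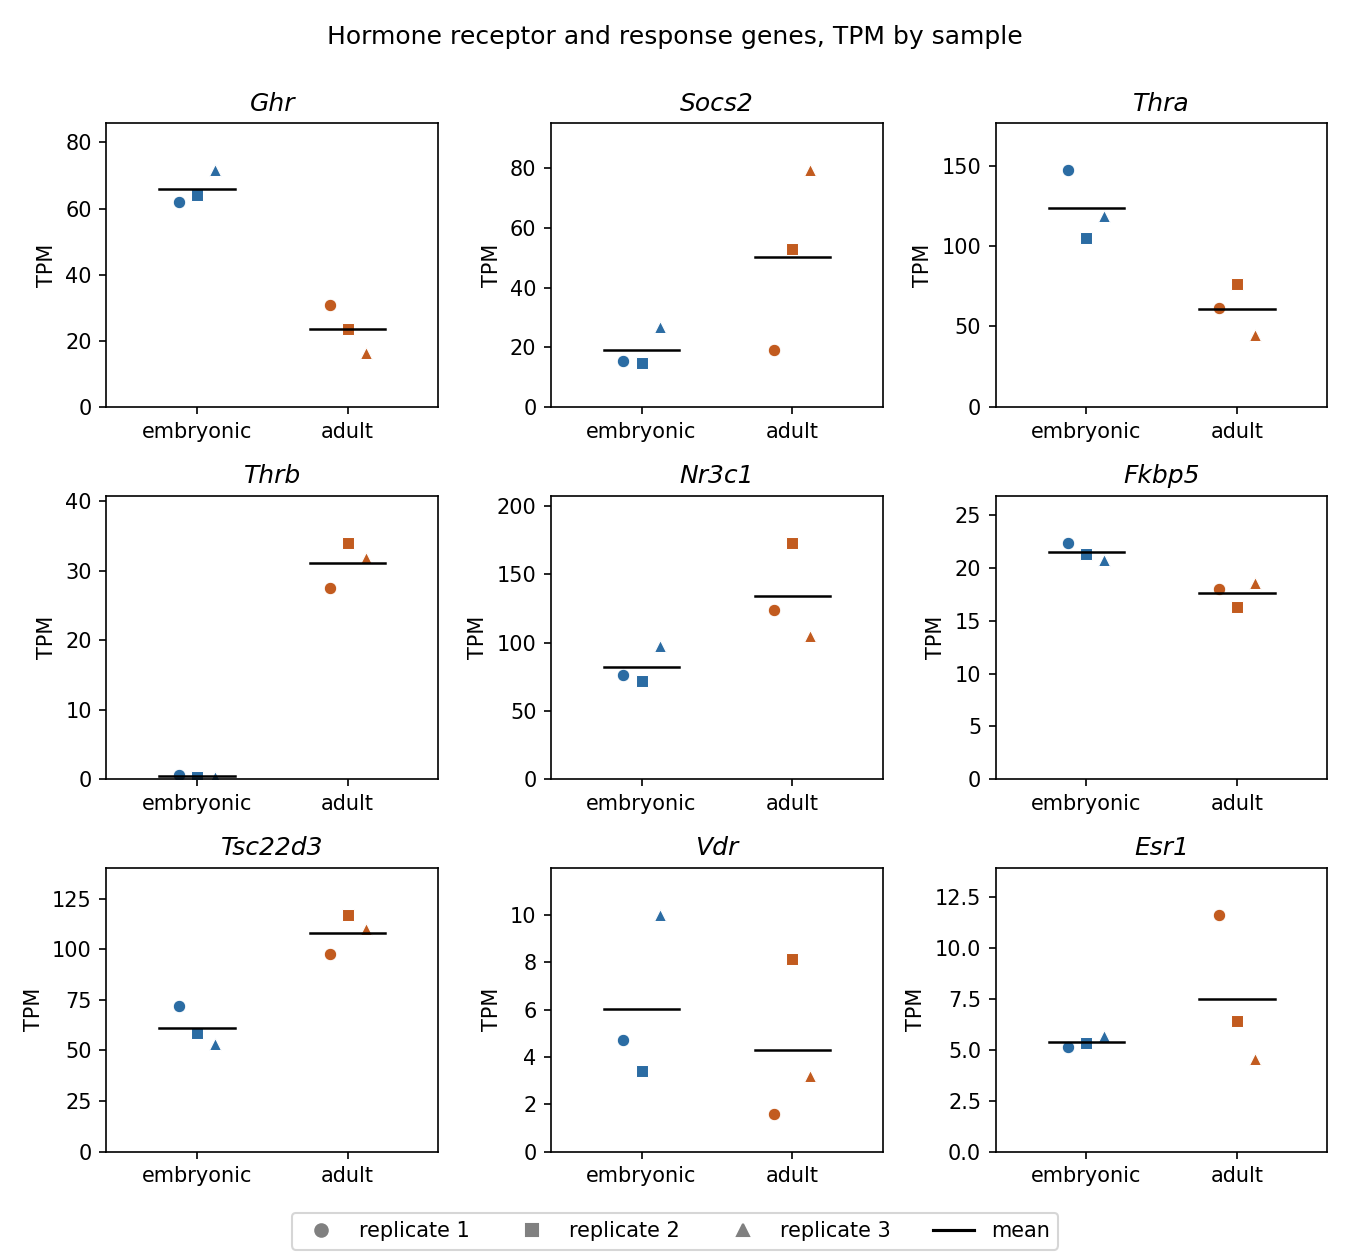
TPM of the 9 hormone genes in each of the 3 embryonic (blue) and 3 adult (orange) samples, with the sample number as the marker shape and the group mean as a black line. Each vertical axis starts at 0 and has its own range. Thrb lies under 1 TPM in all embryonic samples and between 27.5 and 34.0 TPM in the adults, Ghr and Thra are lower in every adult sample than in any embryonic one, and Socs2, Vdr and Esr1 overlap.

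The order of the 9 levels changed with the stage. In embryonic chondrocytes Thra was the highest at a mean of 124 TPM, followed by Nr3c1 at 81.9, Ghr at 65.9, Tsc22d3 at 61.2, Fkbp5 at 21.5, Socs2 at 19.0, Vdr at 6.03, Esr1 at 5.37 and Thrb at 0.469 TPM. The neighbours Ghr and Tsc22d3, Fkbp5 and Socs2, and Vdr and Esr1 overlapped in their samples, and the other neighbours did not. In adult chondrocytes Nr3c1 led at 134 TPM, followed by Tsc22d3 at 108, Thra at 60.9, Socs2 at 50.4, Thrb at 31.1, Ghr at 23.6, Fkbp5 at 17.6, Esr1 at 7.51 and Vdr at 4.30 TPM. There, only Tsc22d3 above Thra and Fkbp5 above Esr1 were separate in all samples. Among the tested genes, the Thrb mean stood at percentile 3.09 in the embryonic and 58.6 in the adult samples, while Nr3c1 stood at 81.5 and 89.7.

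**Figure D2:**
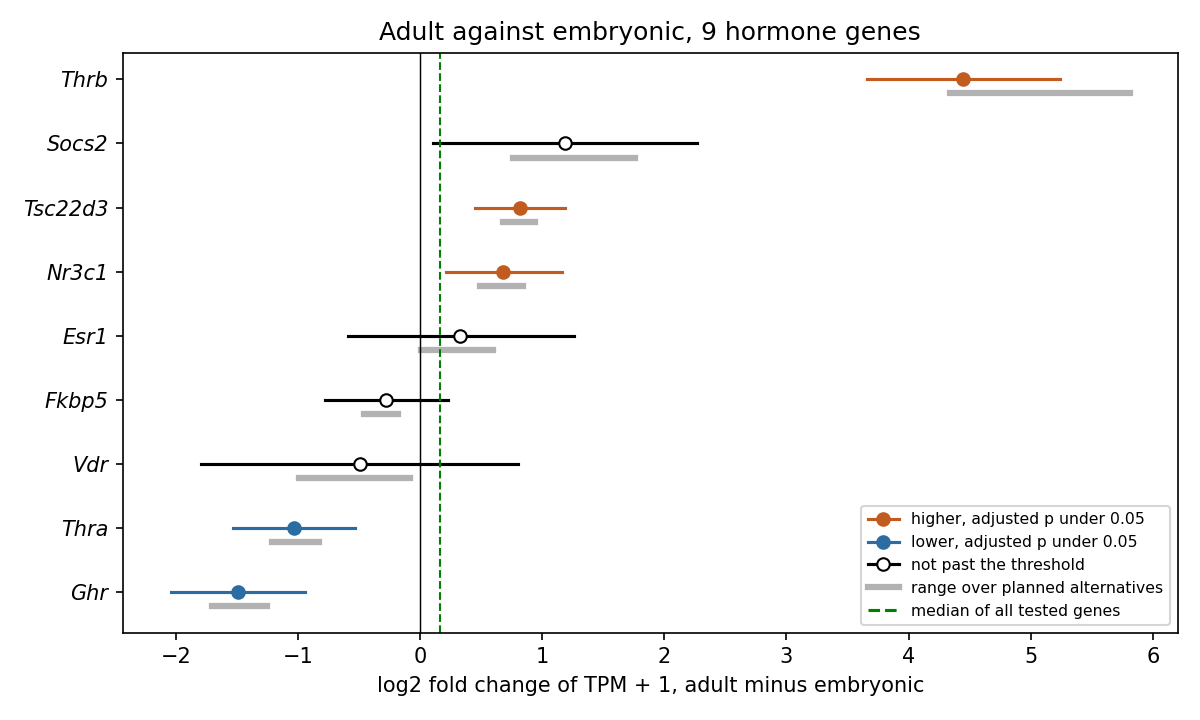
Log2 fold change of TPM + 1, adult minus embryonic, of the 9 hormone genes from the limma fit over all genes (points). Thin lines give the 95% interval and grey bars the range over 15 alternative settings, which include leaving out each sample in turn. The dashed line is the median of all tested genes, 0.16. Thrb at 4.45 stands far to the right of the others, Ghr at -1.49 and Thra at -1.03 lie on the lower side, and the intervals of Fkbp5, Vdr and Esr1 include 0.

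The thyroid hormone receptors moved in opposite directions. Thrb, which encodes the beta receptors, was listed at 0.667, 0.373 and 0.369 TPM in embryonic samples 1, 2 and 3 and at 27.5, 34.0 and 31.8 TPM in adult samples 1, 2 and 3. Every adult sample was far above every embryonic one, and the mean was 66.2 times as high. On the log2(TPM + 1) scale the level went from 0.55 ± 0.16 to 5.0 ± 0.15 (SD, n = 3 each), a fold change of 4.45 (SE 0.347, limma adjusted p = 2.5e-05). The pseudocount of 1 compresses this change, and with one of 0.1 it was 5.81. The call held without adult samples 1 and 3 (4.58, limma adjusted p = 0.00343) and without embryonic samples 1 and 3 (4.54, adjusted p = 0.0191). Thra, which encodes the alpha receptor, the main form in bone and cartilage, was at 147, 105 and 119 TPM in embryonic samples 1, 2 and 3 and at 61.5, 76.6 and 44.5 TPM in adult samples 1, 2 and 3. All adult samples were below all embryonic ones, with a fold change of -1.03 (SE 0.22, limma adjusted p = 0.00529). Without adult samples 1 and 3 together, which leaves 1 adult sample, it was -0.67 and no longer called (adjusted p = 0.0735), and without embryonic samples 1 and 3 it was -0.81 (adjusted p = 0.206).

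The exons of Thra overlap those of Nr1d1 on the opposite strand. The 2 genes share 263 exon bases, 5.7% of those of Thra, and the library kits are not stated to keep strand, so reads from the shared bases cannot be told apart. Nr1d1, a repressor of the circadian clock, was at 11.8, 6.0 and 12.8 TPM in embryonic samples and at 234, 292 and 189 TPM in adult samples, with a fold change of 4.46 (SE 0.285, limma adjusted p = 9.1e-06), the reverse of Thra in direction.

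Within each sample, Thra exceeded Thrb at both stages by very different margins. The difference of the log2 levels was 6.48, 6.27 and 6.45 in embryonic samples 1, 2 and 3 and 1.13, 1.15 and 0.47 in adult samples 1, 2 and 3. The mean margin fell by 5.48 in the adults (exact two-sided permutation p = 0.1, the smallest that 3 against 3 samples allow, adjusted over 4 such differences to 0.2).

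Thrb lies on chromosome 14 (chr14:17660261-18038090 of GRCm38) and Thra on chromosome 11 (chr11:98740638-98769006). RefSeq promoter windows of GRCm38.p6, from 250 bases before to 50 bases after a transcription start, were found for 6 of the 9 genes, in 11 windows, and Thrb had 2 that start some distance apart in the gene. They are printed because Thrb changed most of the 9 genes and its windows differ in kind. The first, chr14:17660710-17661009 on the plus strand, has 72.7% G and C and 37 CpG dinucleotides. The second, chr14:17981394-17981693 on the plus strand, has 46.0% and 4. The median of all 32851 windows is 52.7% and 7. Capitals mark the nuclear receptor core motif AGGTCA in the first and the glucocorticoid receptor core motif AGAACA, on either strand, in the second.

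Thrb first start: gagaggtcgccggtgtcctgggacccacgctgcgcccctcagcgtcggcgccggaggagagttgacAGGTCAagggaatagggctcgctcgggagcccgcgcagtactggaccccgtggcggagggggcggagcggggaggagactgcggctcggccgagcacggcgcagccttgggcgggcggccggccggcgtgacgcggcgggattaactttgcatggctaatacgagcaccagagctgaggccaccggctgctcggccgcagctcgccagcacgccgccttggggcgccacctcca
Thrb second start: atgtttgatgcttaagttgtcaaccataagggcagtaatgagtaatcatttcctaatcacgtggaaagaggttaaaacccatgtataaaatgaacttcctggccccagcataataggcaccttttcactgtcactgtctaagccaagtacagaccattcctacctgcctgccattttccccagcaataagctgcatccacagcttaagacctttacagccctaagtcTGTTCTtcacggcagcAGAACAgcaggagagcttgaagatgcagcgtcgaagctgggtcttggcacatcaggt

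In the first window AGGTCA stands at positions -184 to -179 from the start, and in the second TGTTCT, the reverse complement of AGAACA, stands at -23 to -18 and AGAACA at -7 to -2. Counted on both strands, AGGTCA was in 16.3% of all windows and AGAACA in 19.0%, so these matches are common. Of the 11 windows of the hormone genes, AGGTCA was in 1 and AGAACA in 2, the second of Thrb and 1 of Tsc22d3. The direct repeat of AGGTCA, any 4 bases and AGGTCA, the classical thyroid hormone element, was in 0.0152% of all windows and in none of the 11. The matrix gives gene levels, and does not tell the starts apart.

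Dio2 showed the largest change among 15 tested genes of a thyroid hormone signaling list of 19. The deiodinase gene, which makes active hormone from its precursor, was at 0.883, 0.0884 and 0.141 TPM in embryonic samples 1, 2 and 3 and at 59.0, 86.8 and 69.2 TPM in adult samples 1, 2 and 3. The adult mean was 193 times the embryonic one, with no overlap and a fold change of 5.76 (SE 0.359, limma adjusted p = 7.9e-06). Like Thrb, Dio2 passed the filter through its adult values. Of the other deiodinases, Dio1 was at 0 in all 6 samples. Dio3, which inactivates the hormone, was at 1.89, 0.138 and 2.53 TPM in embryonic and 13.3, 0 and 2.48 TPM in adult samples and was not called (limma adjusted p = 0.558).

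Its promoter window is printed for the cyclic AMP response element TGACGTCA, in capitals, which stands at positions -95 to -88 from the start and was in 1.79% of all windows counted on both strands. The window is chr12:90738989-90739288 of GRCm38.p6 on the minus strand.

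Dio2: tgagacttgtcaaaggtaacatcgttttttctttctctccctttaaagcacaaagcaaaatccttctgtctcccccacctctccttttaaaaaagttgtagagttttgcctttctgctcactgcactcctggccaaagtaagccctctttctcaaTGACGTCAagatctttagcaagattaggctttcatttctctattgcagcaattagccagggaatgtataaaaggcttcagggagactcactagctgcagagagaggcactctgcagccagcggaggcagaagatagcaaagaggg

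Slc16a10, a transporter that carries thyroid hormone into cells, had a fold change of 0.04 (SE 0.387), was not called and was named after its value was seen. Of the retinoid X receptors that pair with the thyroid receptors, Rxra was higher, at 45.7 to 61.1 TPM in embryonic and 62.7 to 113 TPM in adult samples (fold change 0.76, SE 0.233, limma adjusted p = 0.0269), a call that was lost in 6 of 15 alternative settings. Rxrb had a fold change of 0.09 (SE 0.229) and was not called, and Rxrg was under 0.5 TPM in every sample.

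Among the coregulators, the coactivator gene Ncoa1 was lower in adults at -1.10 (SE 0.258, adjusted p = 0.00838 by limma), while the corepressor gene Ncor1 was higher at 0.46 (SE 0.118, adjusted p = 0.0118) and was named after its value was seen. Hr, a corepressor whose gene thyroid hormone induces in brain, rose from 22 to 25 TPM to 72.7, 120 and 117 TPM (fold change 2.07, SE 0.221, limma adjusted p = 1.4e-04). Klf9, another gene that responds to the hormone in other tissues and also to glucocorticoids, was at 83.9 to 121 TPM in embryonic and 93.7 to 97.3 TPM in adult samples and was not called (fold change -0.14, SE 0.166). In all, 5 of the 15 tested genes of the list were higher, 3 were lower and 7 were not called, with a median of 0.09. The share called was 53.3%, beside 45.3% of all genes.

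**Figure D3:**
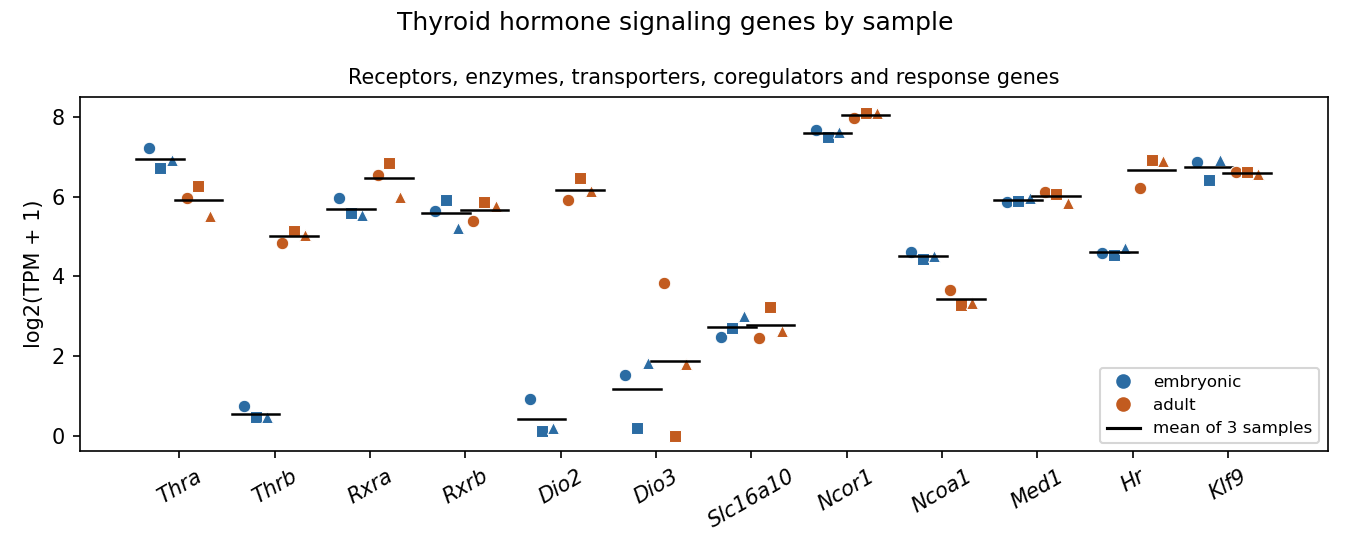
Levels of thyroid hormone signaling genes on the log2(TPM + 1) scale in each embryonic (blue) and adult (orange) sample, with sample 1 as a circle, 2 as a square and 3 as a triangle and the mean of 3 samples as a black line. Thrb and Dio2 go from means of 0.55 and 0.41 to 5.0 and 6.17, Thra and Ncoa1 are lower in adults, and Slc16a10 and Klf9 overlap.

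Growth hormone receptor transcripts were lower in adult chondrocytes. Ghr (chr15:3317760-3583492) was at 62.0, 64.1 and 71.5 TPM in embryonic samples 1, 2 and 3 and at 30.9, 23.6 and 16.2 TPM in adult samples 1, 2 and 3. Every adult sample was below every embryonic one, and the embryonic mean was 2.80 times the adult mean. The log2 level went from 6.06 ± 0.11 to 4.57 ± 0.45 (SD, n = 3 each), a fold change of -1.49 (SE 0.243, limma adjusted p = 0.00138). The call held in all 15 alternatives, which include leaving out each sample in turn, with a fold change of -1.70 to -1.25. Without embryonic samples 1 and 3 together, which leaves 1 embryonic sample, it was -1.45 and not called (adjusted p = 0.111).

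The first Ghr promoter window, chr15:3583303-3583602 of GRCm38.p6 on the minus strand, is shown as that of a receptor gene that fell. It has 67.0% G and C and 23 CpG dinucleotides, and it has no capitals because none of the motifs searched was in it. Beside those named in other paragraphs, these were AGGTCA, any 3 bases and AGGTCA, the vitamin D direct repeat (0.00609% of all windows), and AGGTCA, any 3 bases and TGACCT, the estrogen response element (0.0213%), neither of which was in any of the 11 windows.

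Ghr: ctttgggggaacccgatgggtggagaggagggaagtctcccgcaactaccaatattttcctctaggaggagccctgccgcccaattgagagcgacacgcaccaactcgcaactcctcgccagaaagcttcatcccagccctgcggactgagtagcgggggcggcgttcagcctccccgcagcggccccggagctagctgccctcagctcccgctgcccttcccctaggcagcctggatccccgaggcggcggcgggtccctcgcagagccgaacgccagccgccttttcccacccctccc

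Socs2 (chr10:95385362-95417180), whose product binds the activated receptor and limits its signal, was at 15.5, 14.8 and 26.7 TPM in embryonic samples 1, 2 and 3 and at 19.0, 52.8 and 79.3 TPM in adult samples 1, 2 and 3. Adult samples 2 and 3 were above all embryonic samples, and adult sample 1 lay among them. The fold change of 1.19 (SE 0.477, 95% interval 0.11 to 2.27) did not pass after adjustment (limma adjusted p = 0.0699). It depended on single adult samples, being 1.76 without adult sample 1 (adjusted p = 0.00434) and 0.76 without adult sample 3 (adjusted p = 0.199), and adjusted p ranged from 0.00434 to 0.199 over the alternatives. Of the 50-base stretches of its transcripts, 4.58% also occur in another gene, most of them in Gm9847. In the adults, the sample with the most Ghr had the least Socs2 and that with the least Ghr had the most. This order was not shared by the embryonic samples, where sample 3 had the most of both genes. The difference Socs2 minus Ghr on the log2 scale was -1.94, -2.04 and -1.39 in embryonic samples 1, 2 and 3 and -0.68, 1.13 and 2.23 in adult samples 1, 2 and 3 (exact two-sided permutation p = 0.1, adjusted over 4 differences to 0.2).

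The other genes of the growth hormone list that were called were all lower in adults. Igf1, the insulin-like growth factor that growth hormone induces in liver and cartilage, was at 357, 293 and 362 TPM in embryonic samples 1, 2 and 3 and at 4.53, 1.84 and 4.62 TPM in adult samples 1, 2 and 3. The embryonic mean was 92.0 times the adult one (fold change -6.24, SE 0.283, limma adjusted p = 1.3e-06). Cish, a feedback inhibitor that STAT5 induces, was at 4.92, 5.60 and 8.43 TPM in embryonic and 0, 0.827 and 0.254 TPM in adult samples (fold change -2.44, SE 0.465, limma adjusted p = 0.00305), a call lost without embryonic samples 1 and 3 (-2.32, adjusted p = 0.0822). Cish passed the filter through its embryonic values alone. Cish and Socs2, both known as STAT5 targets, thus differed in the sign of their fold change, although only that of Cish passed the threshold. The others that fell were Grb10, an adaptor that inhibits insulin and IGF1 receptors, with a fold change of -2.48 (limma adjusted p = 4.7e-06), and Irs2, a docking protein of those receptors, with one of -0.74 (adjusted p = 0.0154), which was named after its value was seen.

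The Cish window, chr9:107296409-107296708 of GRCm38.p6 on the plus strand, is printed for the STAT5 motif TTCNNNGAA, in capitals, which occurs at bases 1 to 9 and 12 to 20 counted from the start. The motif was in 8.30% of all windows on either strand and in 2 of the 11 of the hormone genes, of Esr1 and Tsc22d3.

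Cish: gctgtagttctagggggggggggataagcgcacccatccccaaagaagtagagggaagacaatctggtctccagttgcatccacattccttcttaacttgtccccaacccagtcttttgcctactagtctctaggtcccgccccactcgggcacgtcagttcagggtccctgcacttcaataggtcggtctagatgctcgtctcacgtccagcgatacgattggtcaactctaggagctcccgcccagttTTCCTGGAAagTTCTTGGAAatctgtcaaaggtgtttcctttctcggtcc

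The kinase and the transcription factors of the pathway were not called. Jak2 had a fold change of -0.49 (SE 0.182, limma adjusted p = 0.0563), Stat5a of 0.65 (SE 0.328, adjusted p = 0.134) and Stat5b of 0.16 (SE 0.284, adjusted p = 0.665), and these 3 genes were chosen for mention after their values were seen. The prolactin receptor gene Prlr was at 1.26 TPM or less in all samples and was not tested. Of the 15 tested genes of the list none was higher, 5 were lower and 10 were not called, with a median of -0.31 and 33.3% called, beside 45.3% of all genes. The summed level of tendon and fibroblast markers fell in the same samples, as given above. Of the 8 markers, 5 were called lower (62.5%, beside 45.3% of all genes), and Mkx, Thy1 and Pdgfra were not called. The part of such cells in the lower Ghr and Igf1 levels was not tested.

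Glucocorticoid receptor transcripts were moderately higher in adults. Nr3c1 was at 76.4, 71.7 and 97.5 TPM in embryonic samples 1, 2 and 3 and at 124, 173 and 105 TPM in adult samples 1, 2 and 3. The groups did not overlap, though embryonic sample 3 and adult sample 3 were close. The fold change was 0.68 (SE 0.208, limma adjusted p = 0.0257), and the call was lost in 5 of 15 alternatives, among them median-of-ratios scaling (0.54, adjusted p = 0.0594) and leaving out embryonic sample 1 (0.64, adjusted p = 0.0845), embryonic sample 2 (0.60, adjusted p = 0.0933) or adult sample 2 (0.49, adjusted p = 0.0719). Nr3c2, the mineralocorticoid receptor, which also binds glucocorticoids, was at 1.37 to 4.04 TPM in embryonic and 2.85 to 6.44 TPM in adult samples and was not called (limma adjusted p = 0.35). The margin of Nr3c1 over Nr3c2 was 4.50 ± 0.60 and 4.61 ± 0.77 on the log2 scale (SD, n = 3 each). It was above 0 in all 6 samples, and its difference between the stages, 0.11, was small beside the spread (exact two-sided permutation p = 0.9).

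The response genes Tsc22d3 and Fkbp5 differed from each other. Tsc22d3 (chrX:140539528-140600659), whose product GILZ mediates anti-inflammatory effects of glucocorticoids, was at 72.0, 58.5 and 53.0 TPM in embryonic samples 1, 2 and 3 and at 97.9, 117 and 110 TPM in adult samples 1, 2 and 3. Every adult sample was above every embryonic one (fold change 0.82, SE 0.164, limma adjusted p = 0.00384). The call held in all 15 alternatives, which include leaving out each sample in turn, at 0.68 to 0.94. It did not hold without embryonic samples 1 and 3 together (0.87). Fkbp5 (chr17:28399094-28517527), a cochaperone that lowers the receptor's affinity for hormone, was at 22.4, 21.3 and 20.8 TPM in embryonic and 18.0, 16.3 and 18.6 TPM in adult samples 1, 2 and 3. All adult samples were slightly below all embryonic ones, but the fold change of -0.28 (SE 0.222, 95% interval -0.78 to 0.23) was not called (limma adjusted p = 0.336). The spread of Fkbp5 within each group was small, with an SD of 0.05 and 0.09 on the log2 scale, and the fit draws each gene's spread towards that of genes at a like level.

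**Figure D4:**
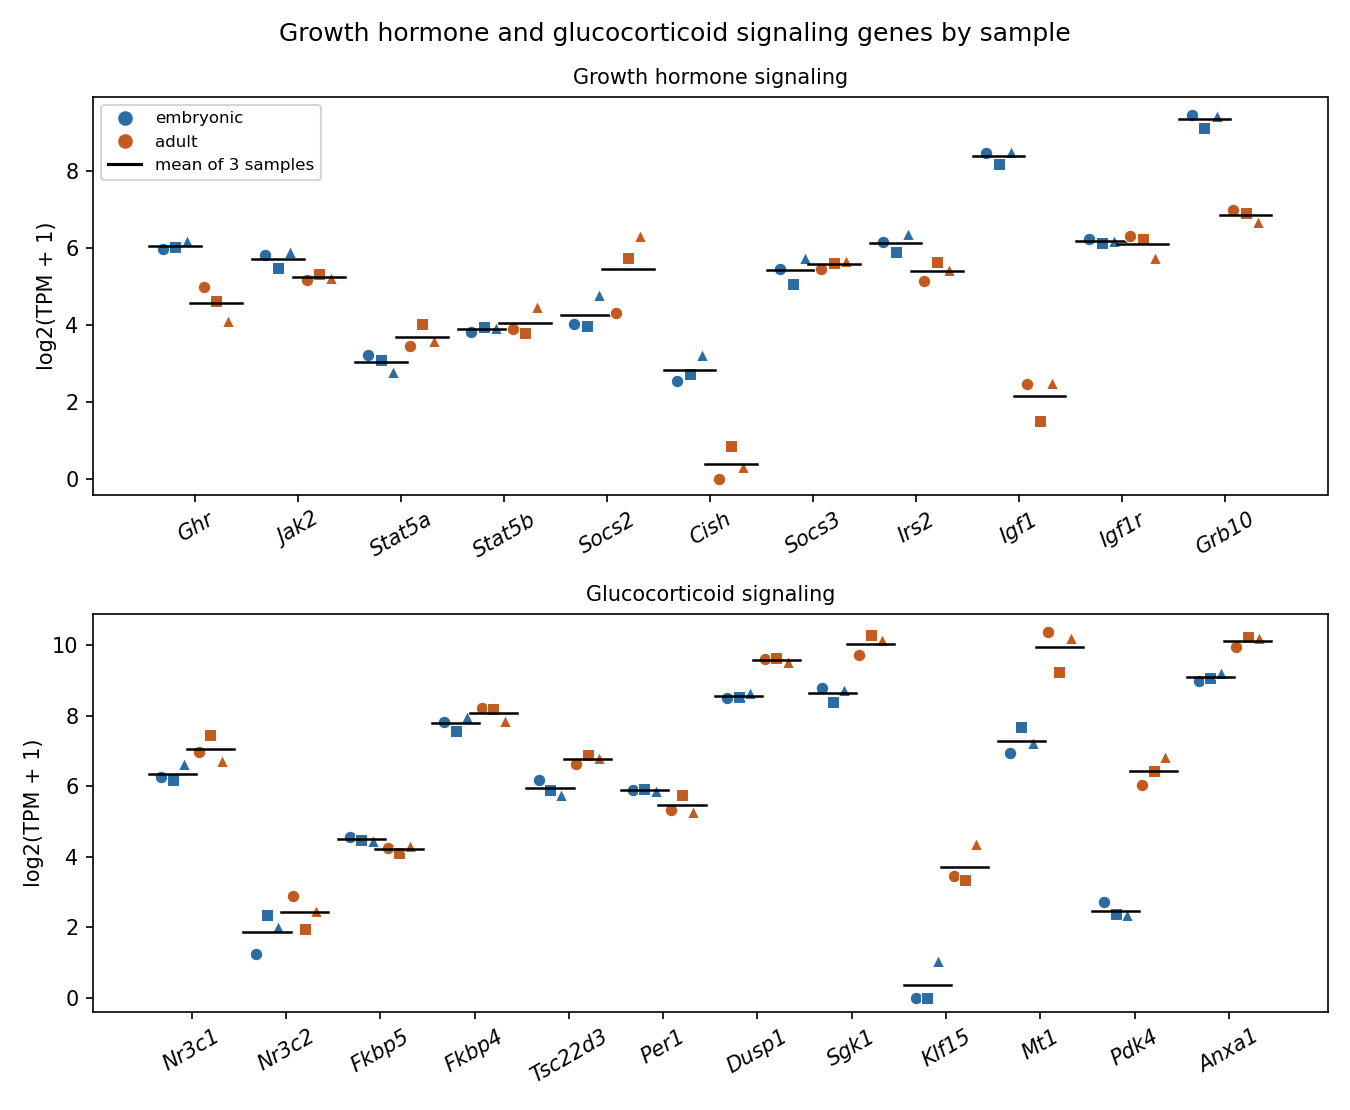
Levels of growth hormone signaling genes (top) and glucocorticoid signaling genes (bottom) on the log2(TPM + 1) scale in each embryonic (blue) and adult (orange) sample, with sample 1 as a circle, 2 as a square and 3 as a triangle and the mean of 3 samples as a black line. Igf1, Grb10, Cish and Ghr lie lower in adults, adult Socs2 is spread widely, and Pdk4, Klf15, Mt1, Sgk1, Dusp1, Anxa1 and Tsc22d3 lie higher while Fkbp5 and Per1 do not.

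Over a list of 23 glucocorticoid signaling genes, 21 were tested, of which 10 were higher, 2 were lower and 9 were not called. The median was 0.40 and 57.1% were called, beside 0.16 and 45.3% of all genes. The largest increases were in Pdk4, a kinase that holds back glucose oxidation, which went from 4.06 to 5.52 TPM to 65.0, 84.6 and 112 TPM (fold change 3.96, SE 0.272, limma adjusted p = 1.3e-05), in Klf15, a transcription factor that glucocorticoids induce in muscle and liver, which was at 0, 0 and 1.06 TPM in embryonic and at 9.84, 9.03 and 19.7 TPM in adult samples 1, 2 and 3 and passed the filter through its adult values, and in the metallothionein gene Mt1 (2.65, SE 0.296, adjusted p = 1.8e-04). Sgk1, a kinase of ion transport, Dusp1, a phosphatase of MAP kinases, and Anxa1 were also higher, at 1.4, 1.04 and 1.04, and were chosen for mention after their values were seen. Dusp1 and Sgk1 respond to many stimuli, serum among them. Cell isolation can raise immediate early genes. The summed level of 8 of them was 3260 to 3690 TPM in embryonic and 2690 to 3130 TPM in adult samples. The 8 were split, with 62.5% called, beside 45.3% of all genes. Junb (fold change 0.75) and Ier3 (0.63) were called higher in adults, and Fosb (-1.29), Jun (-0.93) and Atf3 (-2.56) lower, all named after their values were seen. The relation of the 8 genes to the glucocorticoid list was not tested.

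Other genes of the list were lower or did not pass. Per1, a clock gene with a glucocorticoid response element, was at 56.7 to 59.5 TPM in embryonic and 37.9 to 53.1 TPM in adult samples (fold change -0.43, SE 0.182, limma adjusted p = 0.0843). Of the receptor chaperones, Hsp90aa1 fell by 0.50 (SE 0.125, adjusted p = 0.0113), a call lost in 3 of 15 alternatives, and Hsp90ab1 (-0.09), Fkbp4 (0.31) and Ptges3 (-0.01), named after their values were seen, were not called. Errfi1, which restrains the epidermal growth factor receptor, fell by 0.41 (adjusted p = 0.0358), a call lost in 10 of 15 alternatives. The enzymes that activate and inactivate glucocorticoids inside cells, encoded by Hsd11b1 and Hsd11b2, were at 2.30 TPM or less in all samples and were not tested.

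A full palindromic glucocorticoid response element, AGAACA, any 3 bases and TGTTCT, was in 3 of all windows (0.00913%) and in none of the 11 of the hormone genes. The Sgk1 window, chr10:21993640-21993939 of GRCm38.p6 on the plus strand, was among the 3 and is printed for it. Capitals mark the element, at positions -189 to -175 from the start, which contains AGAACA on each strand.

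Sgk1: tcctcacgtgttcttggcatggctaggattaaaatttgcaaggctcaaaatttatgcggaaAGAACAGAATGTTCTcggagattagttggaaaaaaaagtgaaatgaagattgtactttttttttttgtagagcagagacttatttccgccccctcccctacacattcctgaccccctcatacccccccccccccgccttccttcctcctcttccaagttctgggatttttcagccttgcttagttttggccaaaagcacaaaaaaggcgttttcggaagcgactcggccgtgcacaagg

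Vitamin D receptor transcripts were low and scattered. Vdr (chr15:97854425-97910630) was at 4.72, 3.39 and 9.99 TPM in embryonic samples 1, 2 and 3 and at 1.59, 8.14 and 3.17 TPM in adult samples 1, 2 and 3. The groups overlapped almost wholly, and the fold change of -0.49 (SE 0.571, 95% interval -1.79 to 0.80) was not called (limma adjusted p = 0.504). Its sign turned without adult samples 1 and 3 (0.49) and without embryonic samples 1 and 3 (0.07). Cyp24a1, which degrades active vitamin D and is the classical gene that VDR induces, was at 0.682 TPM or less in all samples, and Cyp27b1, which makes the active form, at 1.77 TPM or less.

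Of 10 tested genes on the vitamin D list of 16, 4 were higher, 2 were lower and 4 were not called, with a median of 0.60 and 60.0% called, beside 0.16 and 45.3% of all genes. Those that changed most are also made by bone cells. Bglap, which encodes osteocalcin, was listed at 0 in the 3 embryos' samples, while adult samples 1, 2 and 3 had 26.8, 15.8 and 83.9 TPM, through which alone it passed the filter. It has near-identical gene copies, among which reads can be split, and it is also on the osteoblast marker list whose summed level rose in the same samples. Spp1, which encodes osteopontin, rose by 2.45 (SE 0.219, limma adjusted p = 5.5e-05) and Cyp27a1, an enzyme of sterol side chains, by 1.97 (SE 0.473, adjusted p = 0.00933). Tnfsf11, which encodes the osteoclast factor RANKL, fell from 16.9, 27.0 and 23.2 TPM to 2.50, 4.95 and 0.0839 TPM (fold change -3.02, SE 0.598, limma adjusted p = 0.00368). Pdia3, a protein folding enzyme, fell by 0.43 (adjusted p = 0.0282), a call lost in 8 of 15 alternatives. The part of bone cell transcripts in these values was not tested.

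Estrogen receptor alpha transcripts did not pass the threshold. Esr1 (chr10:4611593-5005614) was at 5.12, 5.32 and 5.66 TPM in embryonic samples 1, 2 and 3 and at 11.6, 6.38 and 4.53 TPM in adult samples 1, 2 and 3. The embryonic samples lay close together and inside the range of the adult ones, where adult sample 1 was highest. The fold change was 0.33 (SE 0.407, 95% interval -0.59 to 1.26, limma adjusted p = 0.528) and 0.01 without adult sample 1. Esr2, which encodes estrogen receptor beta, was at 1.62 TPM or less in all samples, and the margin of Esr1 over Esr2 was 2.32 ± 0.61 and 2.41 ± 1.17 on the log2 scale (SD, n = 3 each, exact two-sided permutation p = 0.9). The membrane receptor gene Gper1 was at 1.79 to 6.80 TPM in embryonic and 4.13 to 11.3 TPM in adult samples and was not called (limma adjusted p = 0.232). Pgr, the progesterone receptor gene that estrogen induces, and Cyp19a1, the aromatase gene, were at 0.143 TPM or less in all samples.

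On the list of 19 estrogen and androgen genes, 18 were found and 11 tested, of which 4 were higher, none lower and 7 not called, with a median of 0.53 and 36.4% called, beside 0.16 and 45.3% of all genes. Those named that rose were Hsd17b4, a peroxisomal enzyme that also oxidizes estradiol (2.07, SE 0.229, limma adjusted p = 1.7e-04), Srd5a3, a reductase that acts mainly in dolichol synthesis (1.62, SE 0.36, adjusted p = 0.00639), and the coactivator gene Ncoa3 (1.46, SE 0.161, adjusted p = 1.7e-04), which was chosen for mention after its value was seen.

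**Figure D5:**
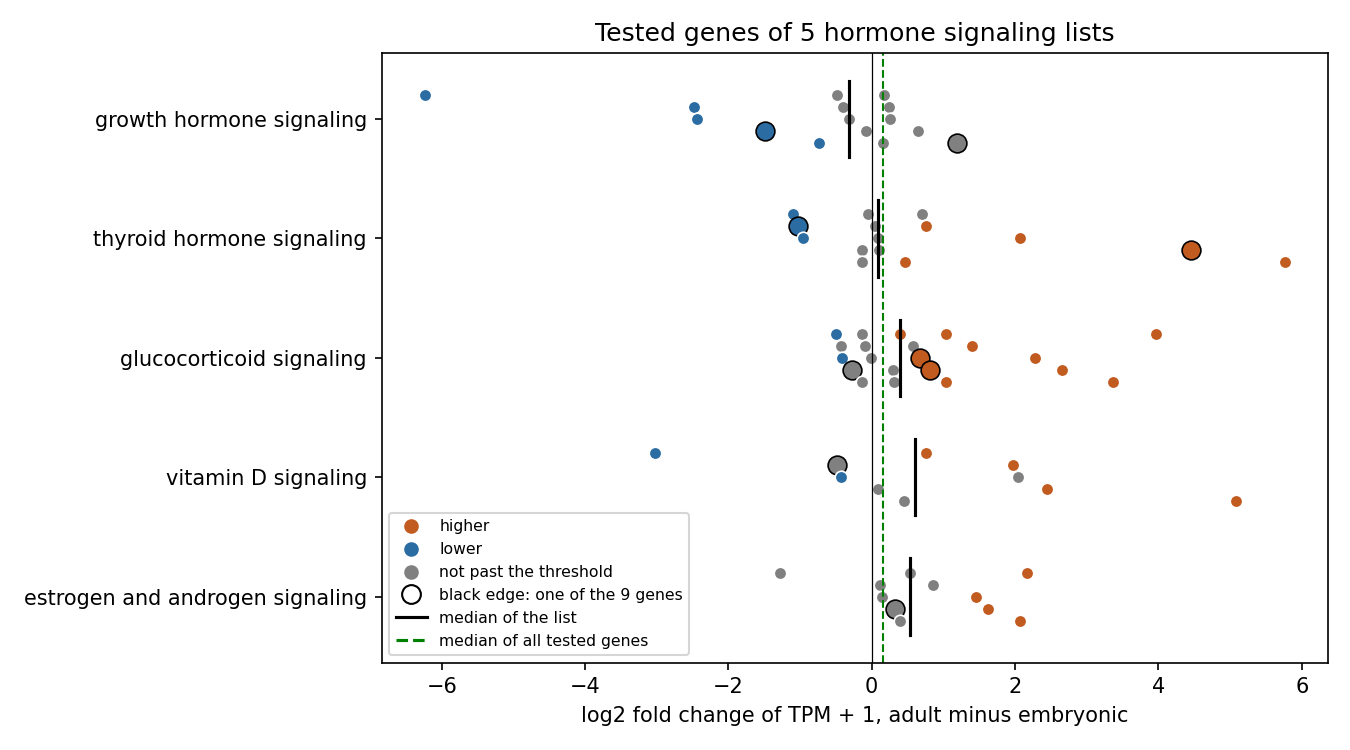
Log2 fold change of TPM + 1, adult minus embryonic, of the tested genes of 5 hormone signaling lists, with genes called higher in orange, lower in blue and the rest in grey, the 9 hormone genes with a black edge, the list median as a black bar and the median of all tested genes, 0.16, as a dashed line. Points are shifted vertically only to separate them. The growth hormone list has no gene called higher and a median of -0.31, and the other 4 lists have medians from 0.09 to 0.60.

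The directions of all 9 fold changes were the same under quantile normalization, median-of-ratios scaling and rescaling without the 20 genes of highest level. These moved the median of all genes to 0.10, 0.03 and 0.25. Relative to the median of all genes in the same setting, Nr3c1 stood at 0.52 as deposited and at 0.51 to 0.63 under the 3 scalings, Tsc22d3 at 0.66 and 0.65 to 0.76, Thra at -1.19 and -1.21 to -1.11, and Ghr at -1.65 and -1.68 to -1.65.

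Levels of other genes followed some of the receptors closely over the 6 samples, which is a description of 2 groups of 3 and not a test. Pearson's r was 0.9994 for Mybl2 with Ghr, and the highest values with the other receptors were 0.9944 for Med14 with Thra, 0.9953 for Nhlrc2 with Nr3c1, 0.9694 for Aldh18a1 with Vdr and 0.9961 for 9530068E07Rik with Esr1, followed by Fmr1, Trub1, Ubqln1 and Agmo. Mybl2, a transcription factor of dividing cells, was at 21.0, 24.9 and 29.2 TPM in embryonic and 5.65, 3.06 and 1.24 TPM in adult samples, lowest in the adult sample where Ghr was lowest. The points share their samples and the difference between stages.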

How the data were processed

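RNA-seq of 3 embryonic and 3 adult mouse chondrocyte samples was used. The authors made cDNA from random and poly(T) primers, sequenced single 50-base reads, mapped them to GRCm38 with RefSeq annotations, estimated levels with RSEM (versions not given in the sources used here) and deposited log2(TPM + 1) per gene, the unit used here. The labels name a different library kit from the methods. Read depth is not part of these values, so precision rests on the spread between 3 samples. The samples are labelled as biological replicates, and the number of animals in each is not given. The limma p-values set a difference between stages against the spread between these samples, drawn towards that of genes at a like level. A value of 0 can be a failed estimate, since in 6 cases it stood beside 2 samples of the same stage with 20 TPM or more.

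Genes were named from GENCODE M21, with 21902 of 22032 identifiers matched. Genes whose mean reached 1 TPM were tested with limma 3.58.1 in R 4.3.3 (eBayes with trend, pseudocount 1 as deposited), adult minus embryonic, with Benjamini-Hochberg adjustment over all 13125 genes and a threshold of 0.05. EBSeq, named in the study's methods, needs counts and was not used. The fit was tried on simulated data with independent noise and few changed genes, which does not cover changes as widespread as those found here. Within-sample differences were compared by exact permutation tests. Other steps used Python 3.11.15 with scipy 1.17.1, numpy 2.4.6, pandas 2.3.3 and matplotlib 3.10.9.

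The 9 genes and the gene lists were chosen with earlier results of these data known. Genes named are the 9, from each list up to 3 called genes per direction with the largest change and no overlap between stages, fixed receptors, enzymes and response genes, and the 2 genes most like Ghr, Thra, Nr3c1, Vdr and Esr1. Others are named as chosen afterwards. Promoter windows are RefSeq's, with windows for 27025 genes, and motifs were searched on both strands. A few genes that the rule selects are not reported here by name.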

Additional observations from a re-analysis of the deposited data

How the results depend on the processing

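Among 36 named genes under the planned settings, 496 gene values kept direction and side of the threshold, 32 lost the call, 4 gained it and 4 turned in sign. Genes called higher and lower numbered 3140 and 2809, but 2613 and 3234 under median-of-ratios scaling and 3509 and 2526 without the 20 highest genes. Leaving out each sample in turn gave 4604 to 5617 genes and 4 to 6 of the 9 hormone genes. Same-numbered samples did not deviate together over the tested genes (r of -0.009, -0.017 and -0.022), and no sample correlated best with its own number. These values give no sign of pairing, but an r over all genes cannot exclude a batch shared by same-numbered samples. With the replicate block 5430 genes and 6 hormone genes were called, Socs2 being added at 1.19 (limma adjusted p = 0.0207).

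The difference between the stages in the margin of Nr3c1 over Nr3c2 turned from 0.11 to -0.05 with a pseudocount of 0.1, and ranged from -0.33 to 0.38 when samples were left out. The difference between the stages in the margin of Esr1 over Esr2 turned from 0.09 to -0.40 with that pseudocount and, under quantile normalization, to -0.10, and ranged from -0.35 to 0.75. Rxrb turned to -0.06 under median-of-ratios scaling and ranged from -0.11 to 0.26 when samples were left out, below 0 without embryonic sample 3 and without adult sample 2. Dio3 then ranged from -0.28, without adult sample 1, to 1.64.

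Both settings that left 1 sample in a group were chosen after seeing the data, and assume that this sample varies like the others. Without adult samples 1 and 3, Vdr was 0.49 and Dio3 -1.18, 5 of the 9 hormone genes were called, Thra was lost and Socs2 gained (1.48, limma adjusted p = 0.0478). Without embryonic samples 1 and 3, which leaves 1 embryonic sample and as many samples in all as the other setting, 1293 genes were called. Of the 9 hormone genes 1 was called, Thrb. The lists then had 2 growth hormone, 3 thyroid hormone, 4 glucocorticoid, 0 vitamin D and 2 estrogen and androgen genes called, and Vdr was 0.07, Rxrb -0.25, Gper1 -0.12 and Klf9 0.19. The cause of these changes was not tested.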
